A study of Mus musculus with 10 samples.

Results

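Amh, the gene of anti-Mullerian hormone, and Amhr2, the gene of its type II receptor, were followed through RNA sequencing of mouse ovarian follicle cells. They were taken by symbol, as 2 of the 23234 genes in the deposited table, and both were read in all 10 libraries. Cumulus cells, which wrap the oocyte and are its nearest granulosa cells, came from C57BL/6 mice aged 10 months (n = 3) and 2 months (n = 3), and mural granulosa cells, the layers along the wall of the follicle, from C57BL/6 mice aged 2 months (n = 2). Whole cumulus-oocyte complexes, which hold the oocyte and its cumulus cells, came from mice aged 3 weeks that had been primed with the gonadotropin PMSG, with 1 library from BDF1 mice, a hybrid of C57BL/6 and DBA/2 stock, and 1 from DBA/2 mice. The labels name eCG, another name of the same gonadotropin, for the mice that gave the mural cells, do not give the priming of the mice that gave the cumulus cells, and describe for all samples a basic medium with milrinone, a phosphodiesterase inhibitor. Nothing in them ties the libraries of a group to different animals, so the spread that p-values rest on is that between libraries and could be technical.

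Anti-Mullerian hormone is a ligand of the transforming growth factor beta family that granulosa cells of growing follicles secrete; in blood it is used as a marker of ovarian reserve. It binds the receptor encoded by Amhr2, which recognises no other known ligand and joins a type I receptor (ACVR1, BMPR1A or BMPR1B) to phosphorylate SMAD1, SMAD5 and SMAD9. In the ovary the hormone restrains the recruitment of primordial follicles and lowers the response of growing follicles to follicle-stimulating hormone, and in the mouse its transcript is known to persist in cumulus cells after it has declined in mural cells.

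The RefSeq promoter table held 1 of the 2 genes, Amhr2, and its sequence is shown because several factors whose transcripts are described below have short recognition motifs that can be looked for in it. The 250 bases before the annotated start, on the plus strand of GRCm38.p6 at chr15:102445117-102445366, are printed 5′ to 3′ with motif matches in capitals.
Amhr2: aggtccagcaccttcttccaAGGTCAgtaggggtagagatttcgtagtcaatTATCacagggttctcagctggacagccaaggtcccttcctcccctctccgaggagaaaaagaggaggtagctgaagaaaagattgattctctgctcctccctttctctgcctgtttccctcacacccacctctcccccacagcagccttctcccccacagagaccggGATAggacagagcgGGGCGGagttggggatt
Both strands were searched for 5 motifs. The motif AGGTCA, the core of sites for nuclear receptors such as the product of Nr5a1, matched 1 time, against 14% of 32851 RefSeq windows of this length that hold it. The motif GATA matched 2 times, 1 of them as its reverse complement TATC, and 53.6% of windows hold it. The GC box GGGCGG matched 1 time, with 32.7% of windows holding it. The SOX core ACAAT and the TATA box TATAAA, held by 27.7% and 12.4% of windows, were not among the letters of this one. These matches describe the sequence, and the files hold no measure of binding.

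Values are FPKM, fragments counted relative to transcript length and to all mapped fragments, as the authors estimated them; they are per length, so levels of different genes can be compared. Summed FPKM ranged from 470377 to 603460 per library and 11373 to 12637 genes reached 1 FPKM; no source used here gives the read depth, so counting error has no interval. All 12 granulosa markers reached 1 FPKM in all 10 libraries. The summed level of 8 mural markers was 2318 and 4424 FPKM in the mural libraries and 68.6 to 93.7 in cumulus cells at 2 months. In the cumulus libraries at 10 months it was 93.7, 441 and 1211 in replicates 1, 2 and 3, so that replicates 2 and 3 carried transcripts of the mural list. The sum of 17 oocyte markers was 4543 and 4405 FPKM in the BDF1 and DBA/2 complexes and ranged from 3.02 to 1694 in the other 8 libraries, with replicate 3 of cumulus cells at 2 months the highest of these and replicate 2 the lowest, with 12 of the 17 listed at 0.

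Amh was one of the most abundant transcripts of cumulus cells. Its level was 426, 366 and 318 FPKM in replicates 1, 2 and 3 of cumulus cells at 2 months. At 10 months the cumulus libraries stood at 740, 638 and 392 FPKM, and the mural libraries at 144 and 37.3. The BDF1 complexes held 437 FPKM and the DBA/2 complexes 44.6. The 6 cumulus libraries and the BDF1 complexes were therefore high, and both mural libraries and the DBA/2 complexes low, with no value between 144 and 318. Ranked within each library, Amh stood between places 132 and 239 from the top in the 7 high libraries, at place 448 in mural replicate 1, and at places 2088 and 2189 in mural replicate 2 and the DBA/2 complexes.

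Amhr2 was present at a similar level in every library. Replicates 1, 2 and 3 of cumulus cells held 89.5, 79.7 and 58.9 FPKM at 2 months and 103, 102 and 72.7 at 10 months. The mural libraries held 81.3 and 68.5 FPKM, the BDF1 complexes 83.4 and the DBA/2 complexes 71.5. The 10 values ran from 58.9 to 103, both ends lay in cumulus cells, and the 3 C57BL/6 groups overlapped.

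By group mean, Amh stood highest in cumulus cells at 10 months (590 ± 179 FPKM, SD, n = 3), then in BDF1 complexes (437), cumulus cells at 2 months (369.9 ± 54.2, n = 3), mural cells (90.9 ± 75.8, n = 2) and DBA/2 complexes (44.6). The BDF1 value lay inside the range of the 10-month libraries and just above the highest 2-month library, and the DBA/2 value between the mural libraries. For Amhr2 the order was cumulus cells at 10 months (92.5 ± 17.1 FPKM, n = 3), BDF1 complexes (83.4), cumulus cells at 2 months (76.1 ± 15.6, n = 3), mural cells (74.9 ± 9.04, n = 2) and DBA/2 complexes (71.5). No neighbours in that order differed beyond their spread.

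**Figure D1:**
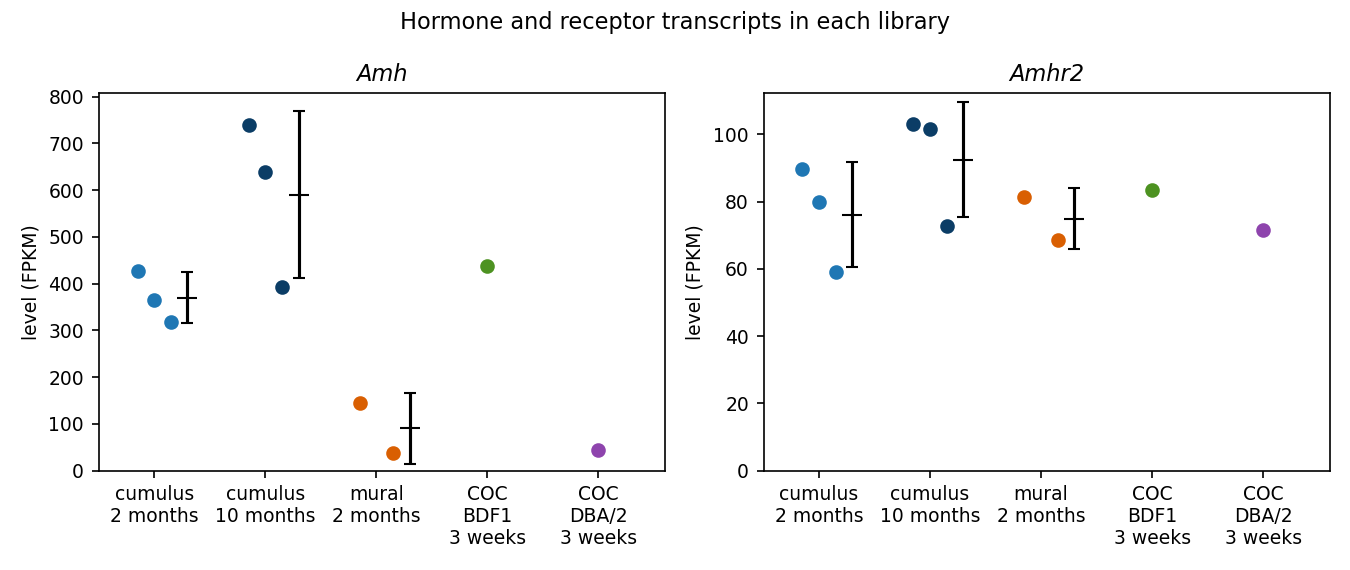
Level in FPKM of Amh (left) and Amhr2 (right) by group; each point is a library, and the horizontal tick with its bar is the mean ± SD of a group with 2 or 3 libraries. Amh runs from 37.3 to 740 FPKM, with mural cells and DBA/2 complexes at the bottom, whereas Amhr2 stays between 58.9 and 103.

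Mural granulosa cells held less Amh than cumulus cells of the same age and strain, while their Amhr2 did not pass the test. On the scale of log2(FPKM + 1), on which fold changes of low genes are understated, Amh was lower in mural cells by a log2 difference of -2.30 ± 0.52 (SE; 95% interval -3.52 to -1.09), an adjusted p of 0.0211 in limma's moderated test over 12412 genes with Benjamini-Hochberg adjustment. Both mural libraries lay below all 3 cumulus libraries. Calls were common in this comparison: 20.9% of the genes tested passed at 0.05 in either direction and 11.2% passed as lower in mural cells, and 32% had mural values wholly below the cumulus values. By size, Amh had the 86th lowest log2 difference of the 12412 genes. For Amhr2 the log2 difference was -0.01 ± 0.23 (95% interval -0.54 to 0.53) with a limma adjusted p of 0.992, and its sign turned under other scalings. In bulk RNA, fewer cells with the transcript and less transcript per cell cannot be told apart.

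The size and the call of the Amh difference depended on single libraries. Without mural replicate 2, the lower of the pair, the log2 difference was -1.34 with a limma adjusted p of 0.111. Without cumulus replicate 1 or replicate 2 at 2 months it was -2.20 and -2.31, with limma adjusted p of 0.0595 and 0.0594. The direction was kept in all 8 fits that each left out 1 library. Mural replicate 2, with the lower Amh, also had the higher summed level of mural markers (4424 against 2318 FPKM) and the lower sum of oocyte markers (26.3 against 218). Transcripts of other cell types moved with the mural group too. The sum of 13 theca and stroma markers was 118 and 190 FPKM in mural replicates 1 and 2, with 10 and 12 of the 13 at 1 FPKM or more, against 19.0 to 20.1 in 2-month cumulus cells. For 9 endothelial markers it was 24.1 and 65.1 against 1.99 to 5.34 FPKM, and for 12 immune markers 29.8 and 67.9 against 6.63 to 8.80. The erythroid sum was 141 and 82.5 against 13.3 to 21.4 FPKM, and the surface epithelium sum 57.9 and 37.2 against 27.5 to 34.9. The gene that made up most of each of these 2 sums in cumulus cells went the other way. Alas2 was 15.1 ± 1.61 FPKM in 2-month cumulus and 1.77 ± 0.84 in mural cells (SD), and Krt8 25.8 ± 4.46 and 14.6 ± 4.01. Of the 9 surface epithelium markers 9 and 8 reached 1 FPKM in mural replicates 1 and 2, against 2 or 3 in 2-month cumulus cells. None of these theca, endothelial and immune markers was listed at 0 in a mural library, and these 3 sums were higher in replicate 2. The part of these transcripts in the Amh difference was not tested.

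Age changed neither transcript past the threshold in cumulus cells. Amh was 740, 638 and 392 FPKM at 10 months against 426, 366 and 318 at 2 months, and the groups overlapped because replicate 3 at 10 months fell below replicate 1 at 2 months. The log2 difference was 0.63 ± 0.47 (95% interval -0.45 to 1.72; limma adjusted p = 0.586). For Amhr2 it was 0.28 ± 0.20 (95% interval -0.19 to 0.76; limma adjusted p = 0.581). Both intervals include 0, and that of Amh reaches 1.72, so in this fit a rise up to that size could not be told from none. The spread behind these intervals is shared with the mural libraries, which differed more in Amh. A fit of the cumulus groups alone gave 0.63 ± 0.27 for Amh (limma unadjusted p = 0.0517, adjusted p = 0.438). For Amhr2 it gave 0.28 ± 0.22 (limma adjusted p = 0.668). With limma 0% of the 12412 genes passed at an adjusted p of 0.05, and 13.9%, or 1727 genes, had an unadjusted p under 0.05. Replicate 3 at 10 months, the lowest of its group for both genes, was the library with 1211 FPKM of mural markers; without it the log2 differences were 0.90 for Amh and 0.44 for Amhr2, with limma adjusted p of 0.565 and 0.479. Other marker sums were higher in all 3 libraries at 10 months than in all 3 at 2 months: 32.6 to 97.6 against 6.63 to 8.80 FPKM for 12 immune markers, 43.5 to 69.5 against 19.0 to 20.1 for 13 theca and stroma markers, and 58.5 to 120 against 27.5 to 34.9 for 9 surface epithelium markers. At 10 months 9 or 10 of the 12 immune markers reached 1 FPKM, at 2 months 2 to 4. For the 9 surface epithelium markers that count was 2, 7 and 9 in 10-month replicates 1, 2 and 3, against 2 or 3 in the 2-month libraries. In 10-month replicate 1 the sum was thus higher without more of these markers reaching 1 FPKM. Krt8 alone averaged 43.4 FPKM in the older and 25.8 in the younger cumulus cells. The part of all these marker transcripts in the levels of Amh and Amhr2 was not tested.

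Mural cells at 2 months were also set against cumulus cells at 10 months, which joins age with cell position and shares its mural libraries with the first comparison. Amh was lower in mural cells by a log2 difference of -2.94 ± 0.52 (95% interval -4.15 to -1.72; limma adjusted p = 0.0168), with both mural libraries below all 3 cumulus libraries. In this comparison 14.7% of genes passed in either direction and 28.1% had mural values wholly below. Without mural replicate 2 the value was -1.97 with a limma adjusted p of 0.105, and without replicate 1 at 10 months it was -2.75 with a limma adjusted p of 0.0554. Amhr2 gave -0.29 ± 0.23 (95% interval -0.82 to 0.24; limma adjusted p = 0.418). Centring on the granulosa markers made that a call (-1.35, limma adjusted p = 0.00255), but it moved the median of all genes to -1.12. Relative to the median Amhr2 was at -0.23 with and without the centring. A term for replicate number in the model also made it a call (-0.45, limma adjusted p = 0.0421), and the labels do not say whether those numbers pair the libraries.

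The ratio of hormone to receptor transcript summarises the uneven pattern. It was 4.76, 4.59 and 5.39 in replicates 1, 2 and 3 of cumulus cells at 2 months and 7.18, 6.28 and 5.39 at 10 months. In the mural libraries the ratio was 1.78 and 0.544, in BDF1 complexes 5.24 and in DBA/2 complexes 0.624. Hormone transcript was thus above receptor transcript in 8 of the 10 libraries and below it in mural replicate 2 and the DBA/2 complexes. The log2 ratio, with 1 added to each level, differed by -2.30 between mural cells and cumulus cells at 2 months (two-sided exact permutation p = 0.2, the smallest that 2 against 3 libraries can give). Between 10 and 2 months the difference was 0.35 (two-sided exact permutation p = 0.1, the smallest that 3 against 3 can give). The groups nearly met: the lowest log2 ratio at 10 months and the highest at 2 months, both in replicate 3, were 2.415 and 2.411. Adjusted over these 2 comparisons by the Benjamini-Hochberg method, each exact permutation p is 0.2.

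The DBA/2 complexes differed from the BDF1 complexes far more in the hormone than in its receptor. Amh stood at 437 FPKM in BDF1 and 44.6 in DBA/2 complexes, 9.79 times higher in BDF1, a log2 ratio of -3.26 for DBA/2 over BDF1. Amhr2 stood at 83.4 and 71.5 FPKM, 1.17 times higher in BDF1, a log2 ratio of -0.22, which became -0.66 when each library was centred on its granulosa markers; that of Amh then became -3.71. There is 1 library per strain, so neither value has a replicate check and no test was made. Among 12671 genes with a mean of at least 1 FPKM in the 2 libraries, 6.78% differed by 2-fold or more on FPKM + 1 and 3.58% were lower by that much in DBA/2 complexes. Genes lower by at least as much as Amh made up 0.276%, or 35 genes counting Amh itself. Of those 35, 23 were genes of small RNAs (Mir, Snor or Scarna symbols), and 6 of the other 12 were listed at 0 in DBA/2 complexes. Among those 12 Amh had the highest level in BDF1 complexes; the next was Fosb, an immediate early transcription factor, at 56.1 FPKM against 2.96.

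**Figure D2:**
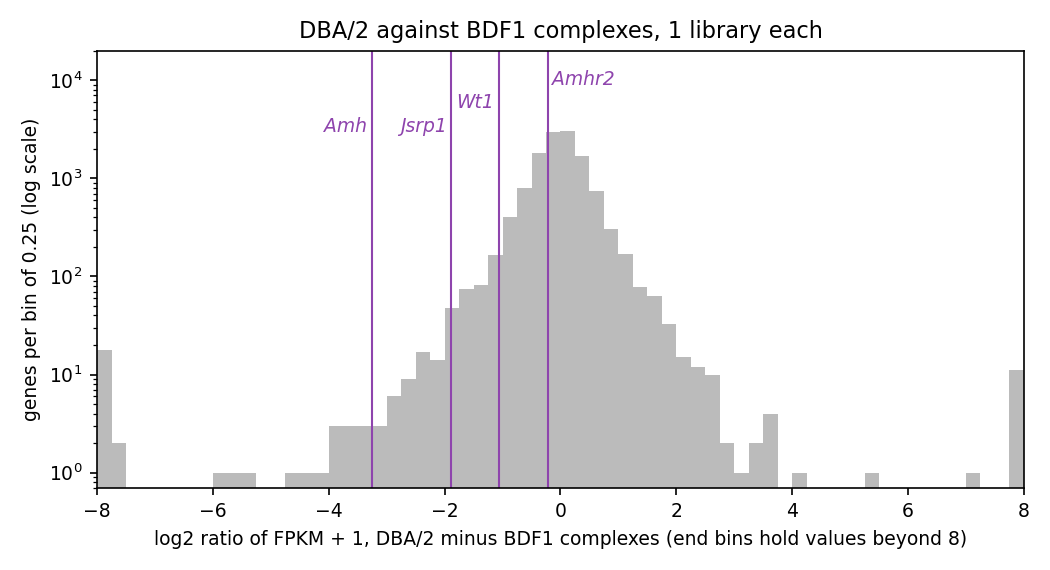
Number of genes (log axis) by log2 ratio of FPKM + 1, DBA/2 minus BDF1 complexes, in bins of 0.25 over 12671 genes; vertical lines mark Amh, Amhr2, Jsrp1 and Wt1. Amh lies in the far left tail at -3.26 and Amhr2 near the centre at -0.22.

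Markers of cell makeup were closer between the complexes than Amh was. The summed level of 12 granulosa markers was 8388 FPKM in BDF1 and 9991 in DBA/2 complexes, that of 17 oocyte markers 4543 and 4405, and that of 6 cumulus markers 331 and 257. Within the cumulus list Npr2, a natriuretic peptide receptor, made up most of the sum, at 231 and 196 FPKM, while Slc38a3, an amino acid transporter, stood at 69.6 in BDF1 and 30.6 in DBA/2, a log2 ratio of -1.16 and the 336th lowest of the 12671 genes. The 8 mural markers summed to 56.7 FPKM in BDF1 and 84.8 in DBA/2 complexes, both near the 68.6 to 93.7 of cumulus cells at 2 months and below the 2318 and 4424 of mural cells. Lhcgr, the receptor of luteinizing hormone and a defining mural transcript, was at 0.340 and 0.693 FPKM in BDF1 and DBA/2 complexes, against 280 and 459 in the mural libraries. The low Amh of DBA/2 complexes thus stood beside a mural marker sum near the cumulus level. Still, each of the 8 was higher in DBA/2 than in BDF1, by log2 ratios from 0.01 for Cd34 to 1.40 for Cyp11a1. Cyp11a1 was 10.2 FPKM in BDF1 and 28.5 in DBA/2, the latter above the 9.74 to 18.0 of the 2-month cumulus libraries. Its mural values were 1067 and 2460 FPKM. The part of mural transcripts in the low Amh was not tested. Strain, library and animal cannot be told apart with 1 library each.

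The genes on either side of Amh were measured as well, since reads of close neighbours can be assigned to either. In the GRCm38.p6 gene table Sf3a2, which encodes a splicing factor subunit, comes before Amh on the same strand, and Jsrp1, which encodes a sarcoplasmic reticulum protein of muscle, comes after it on the opposite strand. Jsrp1 had a low level with the pattern of Amh across cell types: 17.7, 15.2 and 13.8 FPKM in cumulus cells at 2 months, 14.4, 15.7 and 18.6 at 10 months, and 3.49 and 3.73 in mural cells. It was lower in mural than in 2-month cumulus cells by a log2 difference of -1.84 ± 0.16 (limma adjusted p = 0.00199) and passed in all 20 alternative fits, with limma adjusted p of at most 0.0331. Against 10-month cumulus cells the difference was -1.90 (limma adjusted p = 0.00421), again called in all 20 alternative fits, with limma adjusted p of at most 0.0468. In the complexes Jsrp1 was 19.3 FPKM in BDF1 and 4.46 in DBA/2, a log2 ratio of -1.89 and the 106th lowest of the 12671 genes.

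Sf3a2 differed less. It was 104, 71.1 and 67.3 FPKM in cumulus cells at 2 months, 73.7, 84.0 and 54.8 at 10 months, 48.5 and 35.1 in mural cells, and 76.0 and 57.6 in BDF1 and DBA/2 complexes. The log2 difference between mural and 2-month cumulus cells was -0.92 ± 0.26 (limma adjusted p = 0.0424), a call kept in 9 of 20 alternative fits, and against 10-month cumulus cells it was -0.74 (limma adjusted p = 0.0904). No source used here says whether the libraries kept strand, and how far the rows of Amh, Jsrp1 and Sf3a2 share reads was not tested. Next to Amhr2, Sp1, a transcription factor gene, gave a mural log2 difference of -0.08 (limma adjusted p = 0.771). Prr13, on the other side, gave 0.79 (limma adjusted p = 0.0237), a call kept in 15 of 20 alternative fits.

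**Figure D3:**
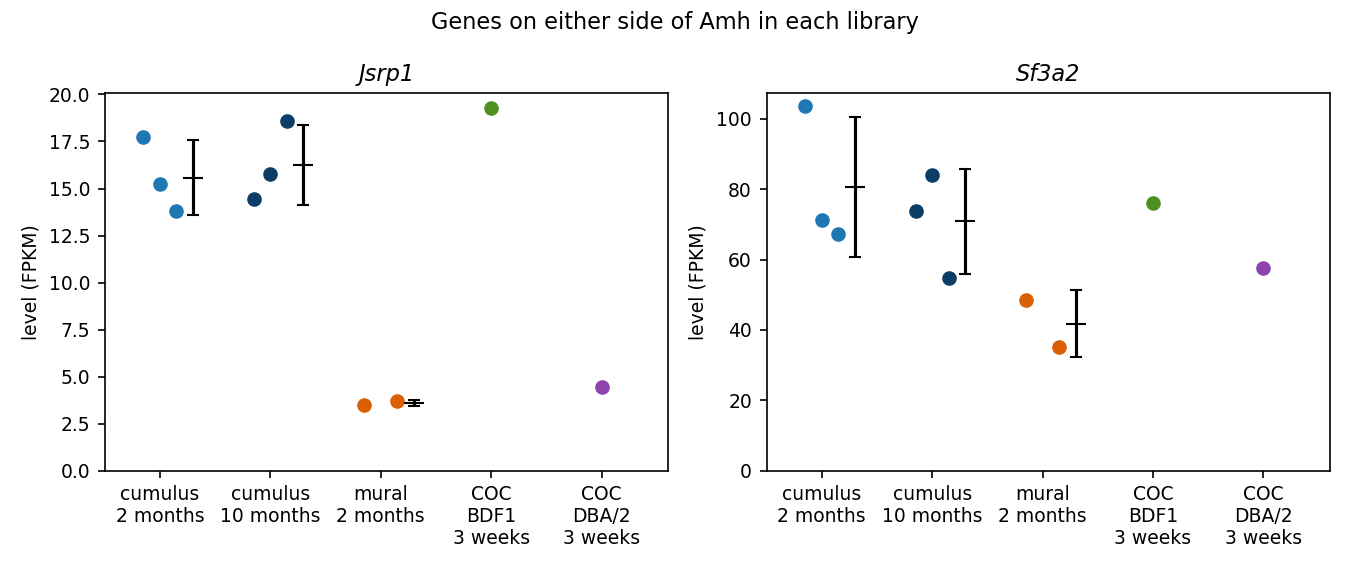
Level in FPKM of Jsrp1 (left) and Sf3a2 (right) by group; points are libraries and the tick with its bar is the mean ± SD of a group. Jsrp1 separates into libraries at 13.8 to 19.3 and at 3.49 to 4.46 FPKM, the low ones being mural cells and DBA/2 complexes.

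The other genes of the pathway were described from 8 lists, by role. Of 57 listed genes 48 passed the filter of a mean of 1 FPKM over the C57BL/6 libraries. Between mural and 2-month cumulus cells 13 of the 48, or 27.1%, passed (8 higher, 5 lower), with a median log2 difference of 0.06 beside -0.08 over all genes, where 20.9% passed. That count was 8, 5 and 6 without replicates 1, 2 and 3 of 2-month cumulus cells, beside 1717, 1208 and 1884 of all genes. It rests on 2 mural libraries, and a fit without either leaves 1 in that group, so no count is given for it. Between 10 and 2 months limma passed 0 of the 48, with 14 at an unadjusted p under 0.05 and a smallest adjusted p of 0.212. Between mural and 10-month cumulus cells 10 of the 48, or 20.8%, passed (6 higher, 4 lower), beside 14.7% of all genes. This count rests on the same 2 mural libraries. Centring each library on the granulosa markers moved the split from 8 higher and 5 lower to 3 and 19 in the first comparison. In the last it moved from 6 and 4 to 2 and 25. All 12412 genes shifted the same way, to 488 higher and 6045 lower in the first and 124 and 9380 in the last.

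None of the 8 receptors passed in any of the 3 comparisons. Of all genes 20.9% passed between mural and 2-month cumulus cells, 0% between the ages and 14.7% between mural and 10-month cumulus cells. In the first comparison the list had a median log2 difference of 0.38, beside -0.08 over all genes. Its smallest limma adjusted p there was 0.0795, for Tgfbr1 at 1.26. Acvr1, Bmpr1a and Bmpr1b, the type I partners of the AMH receptor, stood in 2-month cumulus cells at 9.25 ± 1.15, 19.1 ± 2.42 and 43.7 ± 4.91 FPKM (SD, n = 3). In mural cells they stood at 13.1 ± 0.50, 24.4 ± 1.79 and 55.3 ± 2.70 FPKM (n = 2). Their log2 differences were 0.46, 0.34 and 0.34, with limma adjusted p of 0.0865, 0.25 and 0.276. In the complexes they were 10.9, 14.1 and 39.4 FPKM in BDF1 and 10.3, 19.6 and 35.7 in DBA/2, and 0 of 7 receptors above the filter differed by 2-fold on FPKM + 1. The type II receptor Amhr2 was more abundant than each of these type I receptors in all 10 libraries.

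Of 8 SMAD genes and their regulators, 1 was higher and 1 lower in mural than in 2-month cumulus cells. This 25% is near the 20.9% of all genes that passed. Smad7, an inhibitory SMAD, was 24.6 ± 6.00 FPKM in cumulus cells at 2 months (SD, n = 3) and 3.56 ± 1.12 in mural cells (n = 2), a log2 difference of -2.49 (limma adjusted p = 0.00757). It was also lower in mural than in 10-month cumulus cells, by -2.15 (limma adjusted p = 0.0180). Smad1, a transducer of the hormone, was 4.84 ± 0.38 FPKM in cumulus and 8.80 ± 1.94 in mural cells, 0.73 on the log2 scale (limma adjusted p = 0.0457), a call kept in 9 of 20 alternative fits. The transducers Smad5 and Smad9 gave -0.07 and -0.41 (limma adjusted p of 0.754 and 0.349).

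Of 6 tested genes that BMP-type receptors are known to induce, Bambi, a decoy receptor, was lower and Runx2, a transcription factor, higher in mural cells than in 2-month cumulus cells. Their share of the list, 33.3%, stands beside 20.9% of all genes. Bambi stood at 3.16 ± 0.26 FPKM in cumulus cells (SD, n = 3) and 1.01 ± 0.01 in mural cells (n = 2), a log2 difference of -1.05 (limma adjusted p = 0.0262). Runx2 was 0.0935 ± 0.0605 and 7.72 ± 4.55 FPKM, a log2 difference of 2.89 (limma adjusted p = 0.0193). The inhibitors of differentiation Id1, Id2 and Id3 did not pass, with log2 differences of -0.10, 0.09 and -0.64 and limma adjusted p of 0.934, 0.919 and 0.370. Of 4 proteases that can cleave precursors of this ligand family, Pcsk6 was higher in mural cells, by 1.06 (limma adjusted p = 0.0290). It makes up 25% of its list, again near the share of all genes. Furin and Pcsk5 gave 0.35 and -0.48 (limma adjusted p of 0.505 and 0.0557).

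Among 8 tested transcription factors linked to the Amh promoter, 2 were higher in mural than in 2-month cumulus cells and none lower. That share of 25% is near the 20.9% of all genes. Nr5a2, a nuclear receptor of granulosa cells, was 104 ± 15.7 FPKM in cumulus cells at 2 months (SD, n = 3) and 253 ± 6.5 in mural cells (n = 2), a log2 difference of 1.28 (limma adjusted p = 0.0107). Gata6 was 32.1 ± 4.96 and 52.2 ± 1.73 FPKM, 0.69 on the log2 scale (limma adjusted p = 0.0479), a call kept in 9 of 20 alternative fits. Neither gene passed after centring on the granulosa markers. That list holds Nr5a2 itself, and the centring moved the median of all genes to -0.73, so it cannot decide whether they differ. Nr5a1, which encodes SF-1, gave -0.35 and Gata4 0.56 (limma adjusted p of 0.401 and 0.109). Against 10-month cumulus cells Gata4, Gata6 and Nr5a2 were higher, by 1.10, 0.86 and 1.45 (limma adjusted p of 0.0226, 0.0332 and 0.0129). After centring on the granulosa markers none of these 3 passed and Gata6 turned negative. Here too the centring cannot decide, since Gata4 and Nr5a2 are on its list and the median of all genes moved to -1.12. Sox9, which drives Amh in the fetal testis, reached at most 1.17 FPKM in any library and was not tested.

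Wt1, a zinc finger factor of gonadal somatic cells, followed Amh in part. It was 7.04, 10.97 and 7.56 FPKM in cumulus cells at 2 months, 13.2, 13.3 and 22.3 at 10 months, and 5.16 and 3.60 in mural cells. Against 2-month cumulus cells the log2 difference was -0.82 (limma adjusted p = 0.0772), and against 10-month cumulus cells it was -1.66 (limma adjusted p = 0.0154). In the complexes Wt1 was 15.2 FPKM in BDF1 and 6.77 in DBA/2, a log2 ratio of -1.06. It was the 1 of 9 listed factors above the filter that was lower by 2-fold on FPKM + 1; on plain FPKM Sox8 (2.29 in BDF1 and 0.874 in DBA/2) and Zfpm2 (3.85 and 1.71) were as well. Nr0b1, which encodes a repressor of SF-1, was the 1 of the 9 that was higher by 2-fold on FPKM + 1, at 2.01 in BDF1 and 7.17 FPKM in DBA/2. Nr5a1 stood at 147 and 139 FPKM and Gata4 at 56.1 and 42.6.

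Among receptors of hormones that act on granulosa cells, Lhcgr was higher in mural than in 2-month cumulus cells, and Esr1, estrogen receptor alpha, was lower. Lhcgr gave a log2 difference of 7.07 (limma adjusted p = 0.00659). Esr1 was 5.72 ± 1.01 FPKM in cumulus cells (SD, n = 3) and 2.40 ± 0.28 in mural cells (n = 2), a log2 difference of -0.97 (limma adjusted p = 0.0117). Fshr, the receptor of follicle-stimulating hormone, gave -0.18 (limma adjusted p = 0.641), and its level in the complexes was 93.7 FPKM in BDF1 and 109 in DBA/2.

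Oocytes signal to cumulus cells through Gdf9, Bmp15, Bmp6 and Fgf8, of which 3 were tested and 1 passed (33.3%, beside 20.9% of all genes). Bmp6 was 25.1 ± 1.97 FPKM in cumulus cells at 2 months (SD, n = 3) and 7.52 ± 1.18 in mural cells (n = 2), a log2 difference of -1.62 (limma adjusted p = 0.0111), and the difference from 10-month cumulus cells was -1.68 (limma adjusted p = 0.0164). Gdf9 ranged from 0.647 to 260.5 FPKM within the 2-month cumulus group and gave -1.34 (limma adjusted p = 0.647), and Bmp15 gave -1.12 (limma adjusted p = 0.663). Bmp6 did not vary with Gdf9 in that group, at 22.8 to 26.5 FPKM. The complexes hold the oocyte, and there Gdf9 was 951 FPKM in BDF1 and 894 in DBA/2, and Bmp15 163 and 167, while Bmp6 was 35.1 and 39.1. Which cells gave the Bmp6 transcript was not tested. Fgf8 was the 1 of these 4 that differed by 2-fold on FPKM + 1, at 5.73 in BDF1 and 16.2 FPKM in DBA/2. Of 5 tested other ligands and binding proteins, Inha, the inhibin alpha subunit, and Bmp2 were higher in mural than in 2-month cumulus cells, by 1.28 and 2.43 (limma adjusted p of 0.0224 and 0.0456). They are 40% of that short list, beside 20.9% of all genes.

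**Figure D4:**
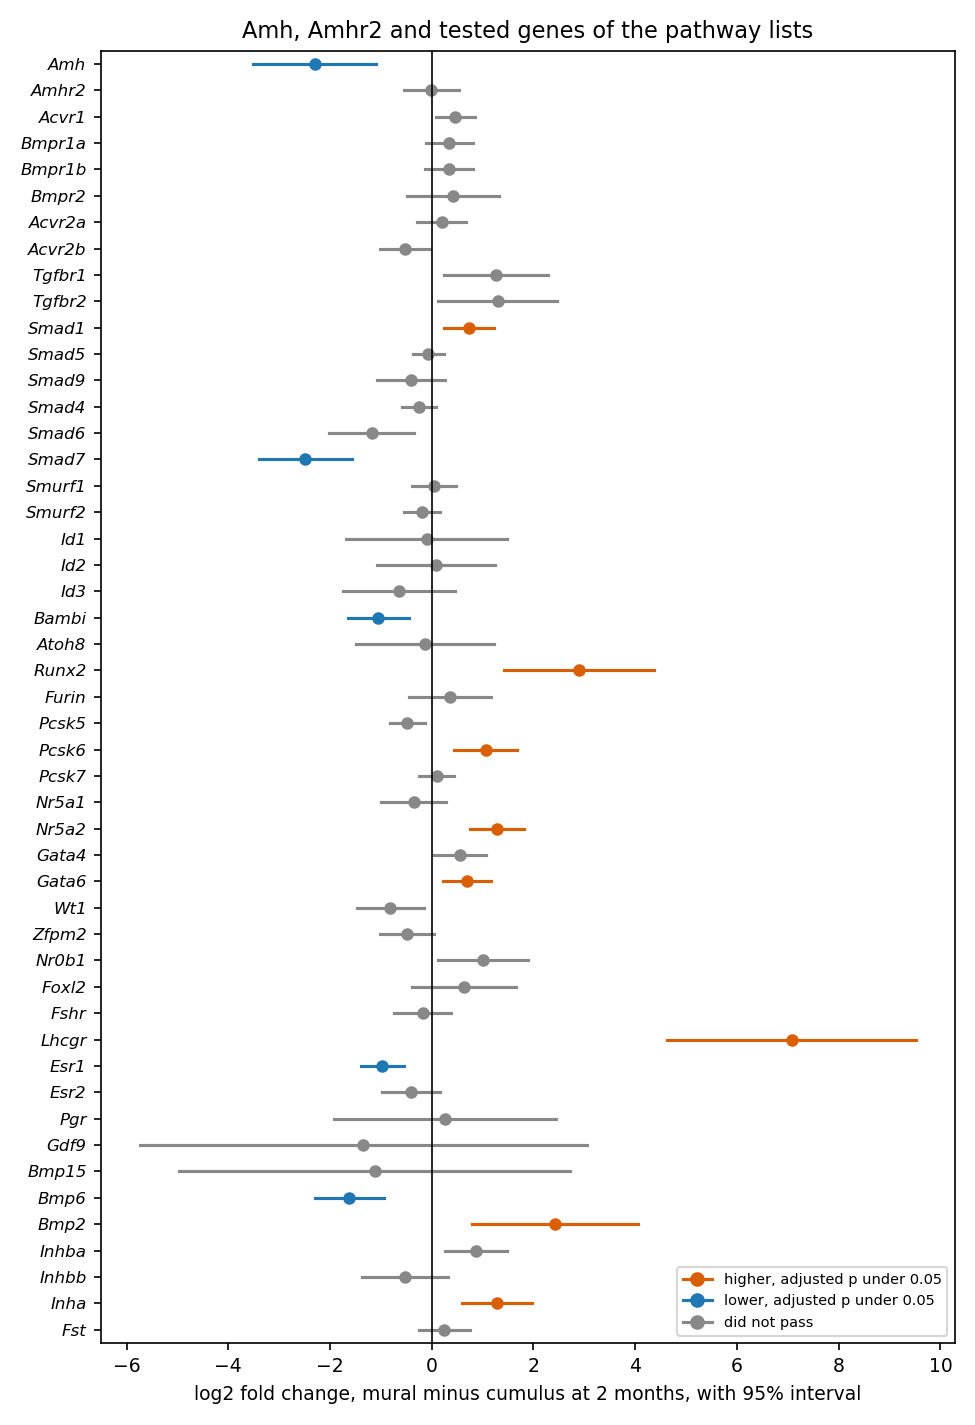
Log2 fold change with its 95% interval, mural minus 2-month cumulus cells, for Amh, Amhr2 and tested pathway genes in order of role; colours mark genes past an adjusted p of 0.05. Amh lies at -2.30 with the inhibitory Smad7 at -2.49, and the 8 other receptors and Amhr2 are grey.

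Genes with the most similar pattern were ranked by Pearson r of log2(FPKM + 1) over the 10 libraries, among 8532 genes with a mean of at least 5 FPKM. The libraries share strain and cell type within groups, so r is a description. For Amh the 8 closest were Perp (r = 0.955), Wfdc10 (0.947), Hnrpll (0.933), Slc18a2 (0.932), Zfp384 (0.922), Stra6 (0.921), Reep1 (0.917) and Fgfr1op (0.915). Their drop in mural cells and DBA/2 complexes differed in depth. It was shallow for Zfp384, at 19.1 to 21.8 FPKM against 22.2 to 26.1 in the 7 libraries high in Amh. For Hnrpll the values were 23.2 to 26.5 against 32.6 to 37.9 FPKM. Perp, a p53 target at cell junctions, ran from 13.0 to 20.2 FPKM in the 7 libraries high in Amh and stood at 4.15 and 1.89 in mural cells and 3.84 in DBA/2 complexes. Wfdc10 was 53.2 FPKM in BDF1 and 3.19 in DBA/2 complexes, and 26.3 and 11.9 in mural cells, against 74.4 to 147 in cumulus cells. Slc18a2, a vesicular monoamine transporter, was 98.0 and 19.2 FPKM in BDF1 and DBA/2 complexes and 40.8 and 20.5 in mural cells. Stra6, a retinol transporter, was 20.6 and 7.62 FPKM in the complexes and 9.54 and 4.93 in mural cells, against 23.2 to 43.0 in cumulus cells.

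**Figure D5:**
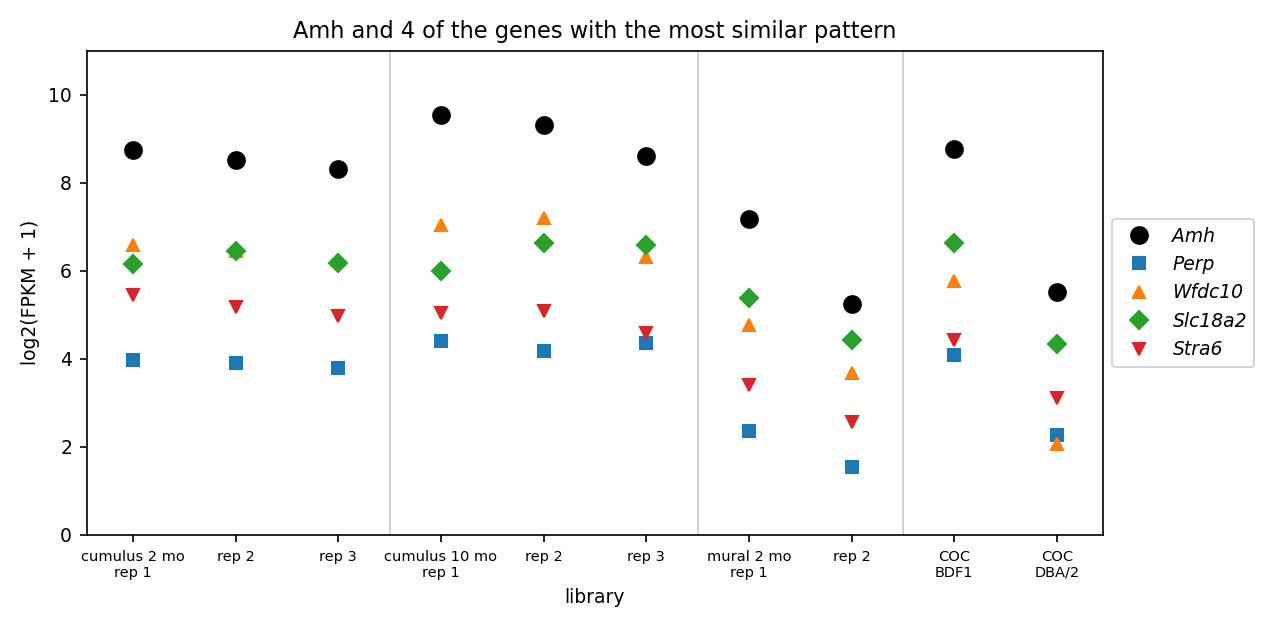
Level as log2(FPKM + 1) of Amh and 4 of its 8 closest genes in each of the 10 libraries, grouped by cell type and strain. The 4 genes were picked for likeness to Amh over these same libraries. All 5 are lower in both mural libraries and in the DBA/2 complexes than in the cumulus libraries and BDF1 complexes.

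For Amhr2 the closest genes were Col9a2 (r = 0.891), Ppp1r12c (0.879), Dapk3 (0.873), Kdm4b (0.866), Rrp36 (0.864), Dvl1 (0.860), Dctn2 (0.857) and Rxrb (0.852). Amhr2 had 0 genes at an r of 0.9 or more, where Amh had 19. The genes near Amhr2 differed in range: Dctn2, a dynactin subunit, ran from 60.0 to 79.6 FPKM, and Col9a2 from 5.33 to 18.9. The lowest library of Amhr2, replicate 3 of cumulus cells at 2 months, was also the lowest for Col9a2, a cartilage collagen gene, at 5.33 FPKM.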

How the data were processed

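Total RNA of 10 mouse libraries in 5 groups was sequenced. The authors deposited FPKM values in a single table; the submitters' processing notes name TopHat2 2.1.0, Cufflinks 2.1.0 and build mm9. No source used here gives the annotation, strandedness or depth. The reference at hand is GRCm38.p6, so no mm9 coordinates are printed. A repeated header line was dropped.

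Values were set to log2(FPKM + 1). The 12412 genes whose FPKM averaged 1 or more over 8 C57BL/6 libraries were fitted in 1 model with a term per group in limma 3.58.1 (R 4.3.3, intensity trend, Benjamini-Hochberg adjustment over all genes, two-sided, threshold 0.05), tested on simulated data. The 2 complexes were compared by ratio only. Genes named are Amh and Amhr2, their neighbours, pathway genes that passed the test or have a known role beside the hormone, and the 8 genes most alike; predicted, Mir and Snor genes were left out of the latter. A pathway gene is not reported here by name. Fosb was named after its value was seen. The genes and lists were chosen with earlier results of these data known. Alternatives were other pseudocounts (0.1 and 5), filters, scalings, covariates, models and leaving out each library.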

Additional observations from a re-analysis of the deposited data

How the results depend on the processing

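Amh in mural against 2-month cumulus cells passed in 17 of 20 alternative fits and in mural against 10-month cumulus cells in 18 of 20, with the same direction in all; leaving out 1 library gave -3.27 to -1.34 and -3.90 to -1.97. The age differences of Amh and Amhr2 kept direction and side in all 20. Amhr2 in mural against 2-month cumulus cells turned positive after rescaling to 1 sum (0.25, limma adjusted p = 0.345) and quantile normalization (0.22, limma adjusted p = 0.423), and ran from -0.18 to 0.12 without 1 library. Rescaling moved the median of all genes from -0.08 to 0.14 and centring on granulosa markers moved it to -0.73; relative to that median Amh gave -2.22 in the main fit, -2.19 rescaled and -2.22 centred, and Amhr2 gave 0.07, 0.11 and 0.07. Against 10-month cumulus cells Amhr2 passed after granulosa centring (-1.35, limma adjusted p = 0.00255; -0.23 relative to the median) and with the replicate block (-0.45, limma adjusted p = 0.0421). The labels do not say whether replicate numbers pair the samples, and with 2 or 3 libraries per group these values cannot decide it. Same-numbered libraries of different groups deviated together with r from -0.05 to 0.21 over 7 pairs, 3 of them above 0.1. Amh and Amhr2 both fell in order of replicate number within each C57BL/6 group. With the block Amh gave -2.49 (limma adjusted p = 0.0131) against 2-month cumulus cells. Pathway counts with the block were 13, 0 and 9, beside 3361, 0 and 2428 of all 12412 genes. Granulosa centring gave pathway counts of 22, 5 and 27 in the mural against 2-month, age and mural against 10-month comparisons. Of all 12412 genes it called 6533, 570 and 9504. Array weights gave 23 in the first, beside 5425 of all genes. The oocyte covariate and a fit of only the groups compared gave 6 each in the last, beside 534 and 681 of all genes. Counts of calls thus moved with the setting over the whole table. Without 1 cumulus library the pathway counts ran from 5 to 17, 0 to 2 and 7 to 12. Beside them 1208 to 3251, 3 to 280 and 546 to 2667 of all genes passed. Fits without 1 mural library leave 1 in that group, so their counts are left out. In the complexes Amhr2 was -0.66 after granulosa centring. The cause of these shifts was not tested. Read depth is not known, which limits low values by an unknown amount.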
